A study of Mus musculus with 6 samples.

Results

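This is an account of the p53 gene Trp53 and 9 genes known as its transcriptional targets, Cdkn1a, Mdm2, Phlda3, Gadd45a, Sesn1, Sesn2, Perp, Ccng1 and Trp53inp1, in glomeruli of mice with diabetic kidney disease. The 10 genes were chosen by name from knowledge of the pathway and matched through their Entrez gene IDs, and all 10 were found among the 18822 genes with values. RNA of renal glomeruli, where the kidney filters the blood, was sequenced from C57BL/6J mice in 2 groups: 3 libraries of PR3 knockout mice (PR3_KO), which lack the neutrophil serine protease proteinase 3 encoded by Prtn3, and 3 libraries of wild-type mice (WT). Both groups had diabetic kidney disease. How diabetes was brought about, how old the animals were and how the knockout was made is not stated in the labels. Values are FPKM, fragment numbers scaled to transcript length and to the mapped fragments of the library, which puts genes of different length on one scale. The sums over all genes were 566772 to 604697 FPKM in PR3_KO and 494316 to 543564 FPKM in WT. They did not overlap between the genotypes, and values are also given with the libraries rescaled.

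p53 is a transcription factor that is kept low by continuous degradation and accumulates after DNA damage and other stresses, so its activity is set mainly at the protein and not at the level of its mRNA. It switches on Mdm2, the ubiquitin ligase that targets p53 itself for degradation, and genes that halt the cell cycle, repair DNA, restrain growth signalling or promote cell death. In the kidney the pathway is known for its part in the injury of tubular cells and podocytes, the epithelium on the outer face of the glomerular filter. Many of its target genes also answer to other transcription factors.

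The 250 bases upstream of a transcription start were examined for the p53 decamer, which runs 3 purines, C, A or T at each of the next positions, G and 3 pyrimidines. The motif reads the same on both strands. RefSeq promoter windows (GRCm38.p6) were matched for 8 of the 10 genes, with 10 windows in all. Of these windows 6 held the decamer, against 7.13% of all 32851 windows of the same length, and 1 held a pair of decamers with at most 13 bases between them, against 0.0639% of all windows. The genes had been chosen as p53 and its known targets, so these shares describe the choice and are no result of the expression data. The windows shown are those of the cell cycle inhibitor gene Cdkn1a, of Mdm2, and of genes that differed between the genotypes in opposite directions, 5′ to 3′ on the strand of the gene and ending at the base before the start, with the decamers in capitals.
Cdkn1a, chr17:29090729-29090978, plus strand: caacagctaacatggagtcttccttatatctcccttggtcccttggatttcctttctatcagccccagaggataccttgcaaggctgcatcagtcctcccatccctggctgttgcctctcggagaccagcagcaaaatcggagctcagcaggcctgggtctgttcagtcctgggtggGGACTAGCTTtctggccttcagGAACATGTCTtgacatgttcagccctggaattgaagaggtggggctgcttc
Mdm2, chr10:117710759-117711008, minus strand: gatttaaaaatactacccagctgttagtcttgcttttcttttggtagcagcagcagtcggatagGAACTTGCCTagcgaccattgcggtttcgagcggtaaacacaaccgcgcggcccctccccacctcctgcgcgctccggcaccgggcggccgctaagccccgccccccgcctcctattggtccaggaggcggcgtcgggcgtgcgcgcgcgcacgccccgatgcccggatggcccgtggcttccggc
Gadd45a, chr6:67037408-67037657, minus strand: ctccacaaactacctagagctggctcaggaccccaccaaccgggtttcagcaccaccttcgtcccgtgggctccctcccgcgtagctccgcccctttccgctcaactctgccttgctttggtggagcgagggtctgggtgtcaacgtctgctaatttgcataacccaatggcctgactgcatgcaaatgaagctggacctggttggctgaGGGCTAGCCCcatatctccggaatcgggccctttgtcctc
Phlda3, chr1:135765835-135766084, plus strand: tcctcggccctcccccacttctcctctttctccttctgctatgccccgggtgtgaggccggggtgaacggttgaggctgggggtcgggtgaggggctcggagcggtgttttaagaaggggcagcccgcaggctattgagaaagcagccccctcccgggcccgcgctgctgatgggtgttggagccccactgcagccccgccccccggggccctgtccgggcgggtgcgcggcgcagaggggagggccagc
Sesn1, chr10:41887189-41887438, plus strand: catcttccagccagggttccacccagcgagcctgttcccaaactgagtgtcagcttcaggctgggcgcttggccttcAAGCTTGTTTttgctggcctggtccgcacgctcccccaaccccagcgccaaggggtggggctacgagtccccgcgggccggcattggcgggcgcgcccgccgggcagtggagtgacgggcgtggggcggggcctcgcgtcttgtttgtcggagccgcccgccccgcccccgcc
Sesn2, chr4:132510457-132510706, minus strand: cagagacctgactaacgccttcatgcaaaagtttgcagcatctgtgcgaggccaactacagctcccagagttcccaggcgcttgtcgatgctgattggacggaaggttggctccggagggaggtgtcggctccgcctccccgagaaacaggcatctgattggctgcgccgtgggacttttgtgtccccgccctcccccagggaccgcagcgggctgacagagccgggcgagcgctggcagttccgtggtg

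The Cdkn1a window belongs to the upstream start of that gene and holds the paired decamers, GGACTAGCTT starting 73 bases and GAACATGTCT starting 51 bases before the start. Directly after GAACATGTCT, the bases tgacatgttc miss the rule only at the first base and were not counted. The window of the downstream Cdkn1a start, chr17:29093519-29093768, held no decamer. The Mdm2, Gadd45a and Sesn1 windows held 1 decamer each, as did those of Trp53 and Ccng1, and the Phlda3 and Sesn2 windows held none. Sesn1 has a further window upstream, at chr10:41810324-41810573, without a decamer. These are matches of letters in short windows, and sites in introns or farther upstream lie outside them.

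Of the 10 genes, 4 fell and 2 rose in PR3_KO (limma, Benjamini-Hochberg adjusted p under 0.05 over all 12388 tested genes). Gadd45a, Phlda3, Sesn1 and Trp53inp1 fell, Sesn2 and Perp rose, and Trp53, Cdkn1a, Mdm2 and Ccng1 were not past the threshold. The background was 41.1% lower and 11.7% higher among all tested genes, so the number of p53 pathway genes that fell was no higher than the background. The groups did not overlap in 7 of the 10 genes, against 65.1% of all tested genes. The median log2 fold change was -0.24 over the 10 genes and -0.26 over all tested genes, and the latter became 0.03 when the libraries were scaled by median of ratios. With that scaling 3 of the 10 genes fell and 2 rose, against 22.2% and 25.6% of all genes.

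**Figure D1:**
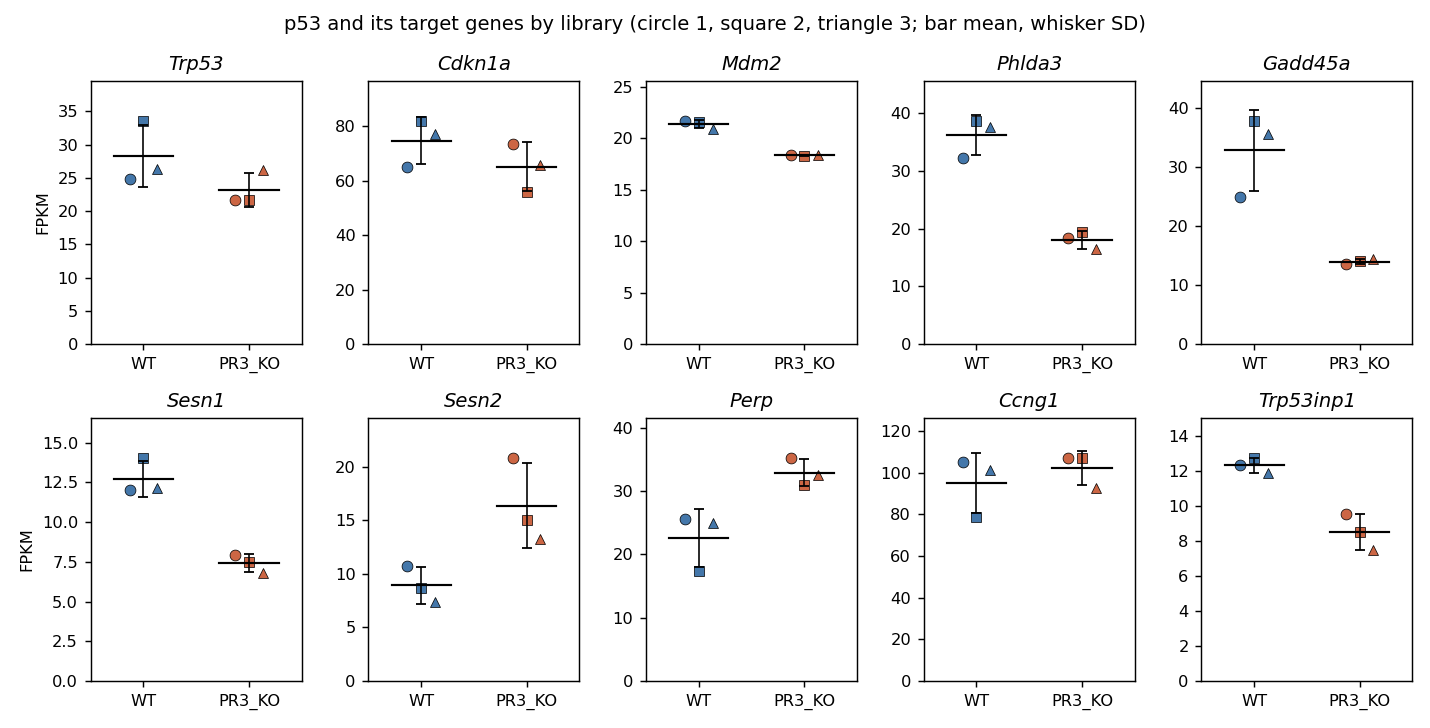
FPKM (vertical axis, from 0) of each of the 10 genes in the 3 WT (blue) and 3 PR3_KO (red) libraries, with the mean as a bar and the SD as a whisker. Phlda3, Gadd45a, Sesn1, Trp53inp1 and Mdm2 lie lower in all PR3_KO libraries than in any WT library, Sesn2 and Perp lie higher, and the groups overlap for Trp53, Cdkn1a and Ccng1.

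In GRCm38.p6 Trp53, on chromosome 11 from 69580348 to 69591873 (plus strand, 11 exons), measured 21.72, 21.70 and 26.18 FPKM in libraries 1, 2 and 3 of PR3_KO, compared with 24.86, 33.53 and 26.39 FPKM in libraries 1, 2 and 3 of WT. The groups overlapped, and WT 2 was the highest library. The means were 23.2 ± 2.58 and 28.3 ± 4.63 FPKM (SD, n = 3 per genotype), a log2 fold change of -0.27 (SE 0.14, limma adjusted p = 0.128), which is close to the median of all genes and turned to 0.05 with median-of-ratios scaling (limma adjusted p = 0.746).

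Mdm2, the ubiquitin ligase of the feedback loop, lies on chromosome 10 from 117688875 to 117710758 (minus strand, 12 exons). It measured 18.40, 18.26 and 18.32 FPKM in the PR3_KO libraries, compared with 21.64, 21.55 and 20.89 FPKM in the WT libraries. It had the tightest spread of the 10 genes and its groups did not overlap, yet the difference of -0.21 (SE 0.08) was just short of the threshold (limma adjusted p = 0.0570). Its direction depended on the scaling: the log2 fold change was 0.10 with median of ratios (limma adjusted p = 0.341) and -0.37 with library sums made equal (limma adjusted p = 0.0140). The ratio of Mdm2 to Trp53 within a library, which no scaling can change, was 0.796 ± 0.0835 in PR3_KO and 0.768 ± 0.116 in WT (SD, n = 3 per genotype), with overlapping groups.

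Cdkn1a encodes p21, the cyclin-dependent kinase inhibitor that carries out much of the cell cycle arrest set by p53. The gene lies on chromosome 17 from 29090979 to 29100722 (plus strand, 3 exons). It measured 73.60, 55.65 and 65.76 FPKM in the PR3_KO libraries, compared with 64.98, 81.79 and 77.21 FPKM in the WT libraries. PR3_KO 1 lay above WT 1, and the groups overlapped. The log2 fold change was -0.20 (SE 0.14, limma adjusted p = 0.257), and 0.13 under median of ratios (limma adjusted p = 0.527). The ratio of Cdkn1a to Trp53 was 2.82 ± 0.492 in PR3_KO and 2.66 ± 0.246 in WT (SD, n = 3 per genotype), again with overlap.

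Ccng1, cyclin G1, a binding partner of protein phosphatase 2A in the regulation of Mdm2, was the most abundant of the 10 genes in both genotypes. The gene lies on chromosome 11 from 40748552 to 40755309 (minus strand). It measured 107.05, 106.86 and 92.82 FPKM in the PR3_KO libraries, compared with 105.25, 78.53 and 101.00 FPKM in the WT libraries, with overlap and with WT 2 the lowest library. The log2 fold change was 0.11 (SE 0.14, limma adjusted p = 0.513), and -0.02 without WT 2 (limma adjusted p = 0.918).

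Gadd45a encodes a stress-induced protein that binds PCNA and activates p38 and JNK signalling. The gene lies on chromosome 6 from 67035096 to 67037407 (minus strand, 4 exons). It measured 13.51, 14.13 and 14.35 FPKM in the PR3_KO libraries, compared with 24.99, 37.76 and 35.64 FPKM in the WT libraries. All PR3_KO libraries were lower than the lowest WT library, and the PR3_KO values were close together. The mean fell from 32.8 ± 6.84 to 14.0 ± 0.436 FPKM (SD, n = 3 per genotype), which is 42.7% of the WT mean (log2 fold change -1.15, SE 0.15, limma adjusted p = 0.00114).

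Phlda3 encodes a small pleckstrin-homology protein that competes with Akt for membrane lipids and so limits Akt signalling. The gene lies on chromosome 1 from 135766085 to 135769134 (plus strand, 2 exons). It measured 18.33, 19.40 and 16.41 FPKM in the PR3_KO libraries, compared with 32.23, 38.60 and 37.66 FPKM in the WT libraries, with a wide gap between the groups. The mean fell from 36.2 ± 3.44 to 18.0 ± 1.52 FPKM (SD, n = 3 per genotype), 49.9% of the WT mean. Its log2 fold change of -0.96 (SE 0.11, limma adjusted p = 0.000838) had the smallest adjusted p of the 10 genes.

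The sestrin genes moved apart. Sestrins are stress-induced proteins that restrain the growth kinase complex mTORC1 through GATOR2, and Sesn2 is also known as a target of the stress factor ATF4. Sesn1, on chromosome 10 from 41810574 to 41908436, measured 7.96, 7.50 and 6.81 FPKM in the PR3_KO libraries, compared with 12.03, 14.05 and 12.16 FPKM in the WT libraries (log2 fold change -0.71, SE 0.11, limma adjusted p = 0.00163). Sesn2, on chromosome 4 from 132492804 to 132510456, measured 20.84, 15 and 13.28 FPKM in the PR3_KO libraries, compared with 10.77, 8.66 and 7.39 FPKM in the WT libraries (log2 fold change 0.80, SE 0.18, limma adjusted p = 0.00907). Neither gene's groups overlapped, and Sesn2 in PR3_KO had the widest relative spread of the 10 genes, 24.2% of its mean. Sesn2 was below Sesn1 in all 3 WT libraries and above it in all 3 PR3_KO libraries. The ratio of Sesn2 to Sesn1 came to 2.62, 2.0 and 1.95 in the PR3_KO libraries, compared with 0.895, 0.616 and 0.608 in WT, a 3.10-fold difference of the means. This ratio was chosen after the values were seen and is given as a description. Sesn3, the further sestrin gene, was not past the threshold (log2 fold change 0.09, limma adjusted p = 0.614).

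Perp encodes a membrane protein of epithelial desmosomes that was found as an effector of p53 in cell death. The gene lies on chromosome 10 from 18845071 to 18857073 (plus strand, 3 exons). It measured 35.26, 30.98 and 32.49 FPKM in the PR3_KO libraries, compared with 25.67, 17.32 and 24.91 FPKM in the WT libraries, with WT 2 the lowest library and no overlap. The log2 fold change was 0.54 (SE 0.15, limma adjusted p = 0.0194). Without PR3_KO 1 it was 0.49 (limma adjusted p = 0.0661) and without PR3_KO 3 it was 0.55 (limma adjusted p = 0.0519), neither past the threshold, while without PR3_KO 2 it was 0.58 (limma adjusted p = 0.0359).

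Trp53inp1 encodes a stress-induced nuclear protein that promotes phosphorylation of p53 and takes part in autophagy. The gene lies on chromosome 4 from 11156441 to 11174379 (plus strand, 4 exons). It measured 9.54, 8.53 and 7.48 FPKM in the PR3_KO libraries, compared with 12.32, 12.75 and 11.89 FPKM in the WT libraries, without overlap. The log2 fold change was -0.49 (SE 0.11, limma adjusted p = 0.00709). Scaled by median of ratios it was -0.19 and not past the threshold (limma adjusted p = 0.199).

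**Figure D2:**
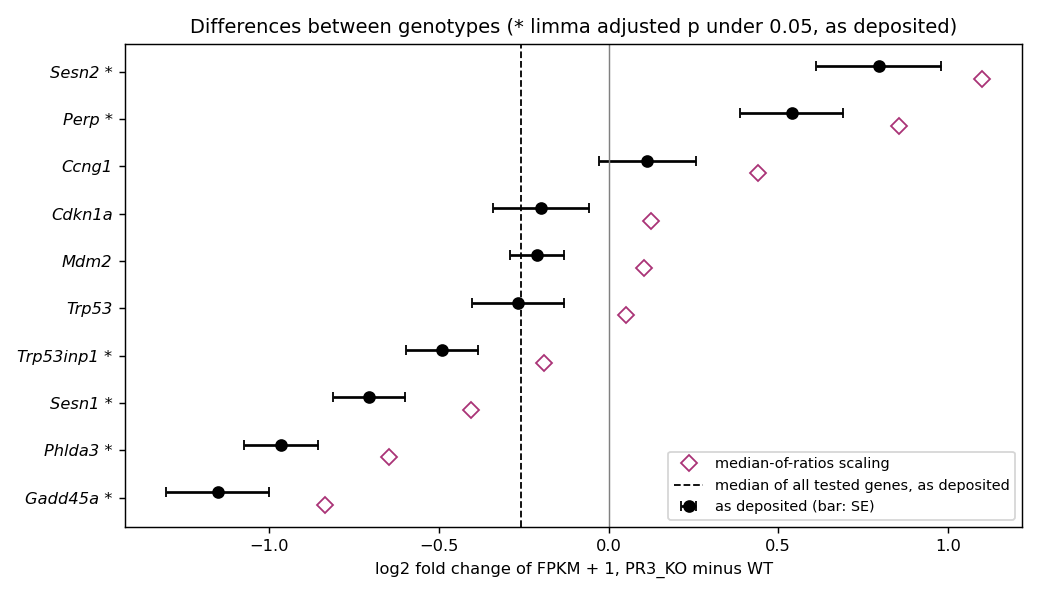
Log2 fold change of FPKM + 1, PR3_KO minus WT (horizontal axis), of the 10 genes as deposited (black points, bars SE, n = 3 libraries per genotype) and with median-of-ratios scaling (open diamonds), with the median of all tested genes dashed. Trp53, Mdm2 and Cdkn1a sit next to that median and change sign with the scaling, while Gadd45a, Phlda3 and Sesn1 stay below 0 and Sesn2 and Perp stay above 0.

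Because the genes moved in different directions, their order by level differed between the genotypes. In WT the order was Ccng1 (94.9 FPKM), Cdkn1a (74.7), Phlda3 (36.2), Gadd45a (32.8), Trp53 (28.3), Perp (22.6), Mdm2 (21.4), Sesn1 (12.7), Trp53inp1 (12.3) and Sesn2 (8.94). Neighbours in this order overlapped in their library values except at 3 steps, from Cdkn1a to Phlda3, from Mdm2 to Sesn1 and from Trp53inp1 to Sesn2. In PR3_KO the order was Ccng1 (102 FPKM), Cdkn1a (65.0), Perp (32.9), Trp53 (23.2), Mdm2 (18.3), Phlda3 (18.0), Sesn2 (16.4), Gadd45a (14.0), Trp53inp1 (8.52) and Sesn1 (7.42). There the levels of Mdm2 and Phlda3, of Phlda3 and Sesn2, of Sesn2 and Gadd45a and of Trp53inp1 and Sesn1 overlapped. Gadd45a went from rank 4 in WT to rank 8 in PR3_KO, Perp from 6 to 3 and Sesn2 from 10 to 7.

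Ratios to Cdkn1a within each library do not depend on how libraries are scaled. They too were chosen after the values were seen. The ratio of Gadd45a to Cdkn1a came to 0.184, 0.254 and 0.218 in the PR3_KO libraries, compared with 0.385, 0.462 and 0.462 in WT. That of Phlda3 was 0.249, 0.349 and 0.250 against 0.496, 0.472 and 0.488. Both ratios were lower in all PR3_KO libraries, with means 0.501 and 0.582 times those of WT. The ratio of Sesn2 to Cdkn1a was 0.252 ± 0.0435 in PR3_KO and 0.122 ± 0.0378 in WT, and that of Perp was 0.510 ± 0.0412 and 0.310 ± 0.0923 (SD, n = 3 per genotype), both without overlap. The ratio of Mdm2 to Cdkn1a was 0.286 ± 0.0395 and 0.289 ± 0.0383 (SD, n = 3 per genotype). The genes of the pathway therefore changed unequally relative to p21, while Mdm2 to Cdkn1a differed by less than the spread between libraries.

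**Figure D3:**
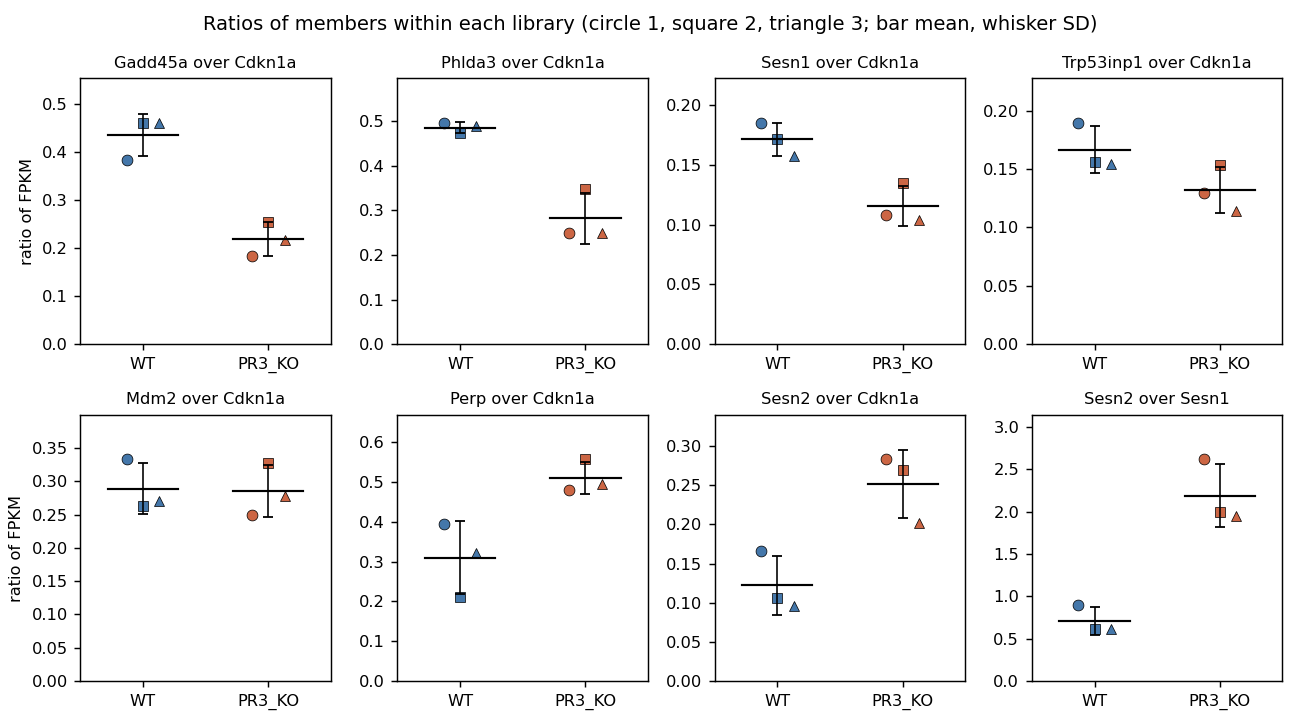
Ratio of FPKM of 2 genes within each library (vertical axis, from 0) in WT (blue) and PR3_KO (red), with the mean as a bar and the SD as a whisker (n = 3 libraries per genotype). Gadd45a, Phlda3 and Sesn1 are lower relative to Cdkn1a in all PR3_KO libraries, Perp and Sesn2 are higher, and Mdm2 overlaps. Trp53inp1 is also lower in all of them, but only just, at 0.153 in PR3_KO 2 against 0.154 in WT 3. Sesn2 over Sesn1 goes from 0.706 ± 0.164 in WT to 2.19 ± 0.372 in PR3_KO.

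The genes with the most similar pattern over the 6 libraries were found by the root-mean-square difference of log2(FPKM + 1) after each gene was centred on its mean. For Trp53 they were Sertad2 (0.0347), Suv39h1 (0.0481) and Med26 (0.0483). For Cdkn1a they were Snrpg (0.0479), Smim27 (0.0517) and Gstcd (0.0523). None of these genes is among the other 9.

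Beyond the 10 genes, 84 further genes known as p53 regulators or targets were measured. Of the 78 that were tested 40 fell and 6 rose, which is 51.3% and 7.69% against 41.1% and 11.7% of all tested genes, with a median log2 fold change of -0.38 against -0.26 for all tested genes. With median-of-ratios scaling 21 fell and 13 rose, where 22.2% of all genes fell and 25.6% rose, and the median was -0.10 against 0.03. In what follows, a size given without a unit after rose or fell is a log2 fold change.

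Of the 18 tested regulators and relatives of p53, 9 fell (50.0%) and 0 rose, where 41.1% of all tested genes fell and 11.7% rose. With median-of-ratios scaling 2 fell and 0 rose, where 22.2% of all genes fell and 25.6% rose. Bmi1, a Polycomb protein that represses the Cdkn2a locus, fell from 25.6 ± 2.01 to 13.4 ± 1.59 FPKM (SD, n = 3 per genotype; log2 fold change -0.89, limma adjusted p = 0.00101). Hipk2, a kinase that phosphorylates p53, fell from 22.8 ± 1.57 to 13.2 ± 2.08 FPKM (SD, n = 3 per genotype; limma adjusted p = 0.00256 at a log2 fold change of -0.75). These were the 2 that also fell with the scaling. The p53 ubiquitin ligase gene Cop1, the acetyltransferase gene Crebbp and Usp7, which encodes a deubiquitinase of Mdm2 and p53, fell by 0.49, 0.46 and 0.38 (limma adjusted p = 0.00863, 0.00950 and 0.00953) and were not past the threshold with median of ratios. Mdm4, the relative of Mdm2 that blocks the activation domain of p53, measured 5.53, 6.18 and 6.36 FPKM in the PR3_KO libraries, compared with 7.88, 9.05 and 6.08 FPKM in the WT libraries, with overlap (limma adjusted p = 0.117). The p53 relatives Trp63 and Trp73 were at most at 0.15 and 0.06 FPKM and were not tested.

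Of the 17 tested targets on the list for apoptosis, 13 fell and 1 rose (76.5% and 5.88%), against 41.1% and 11.7% of all tested genes. With median-of-ratios scaling 7 fell and 3 rose, against 22.2% and 25.6% of all genes. Fas, the death receptor gene, measured 19.18, 18.25 and 15.96 FPKM in the PR3_KO libraries, compared with 32.65, 47.65 and 42.13 FPKM in the WT libraries (log2 fold change -1.14, limma adjusted p = 0.00108). Casp1, the inflammatory caspase, fell from 9.11 ± 4.07 to 1.45 ± 0.260 FPKM (SD, n = 3 per genotype; limma adjusted p = 0.00143). The receptor genes Tnfrsf22 and Tnfrsf10b fell by 0.98 and 0.73 (limma adjusted p = 0.00123 and 0.00179), and Tnfrsf22 has a close copy, Tnfrsf23, whose reads it can share. Tnfrsf22 and Tnfrsf23 encode TRAIL decoy receptors without a death domain, and Tnfrsf10b encodes the death receptor for TRAIL. Tnfrsf23, named after its values were seen, fell by 0.80 (limma adjusted p = 0.00696). Bbc3, which encodes the p53-induced BH3-only protein PUMA, fell from 4.68 ± 0.947 to 2.29 ± 0.300 FPKM (SD, n = 3 per genotype; log2 fold change -0.78, limma adjusted p = 0.00429). Bid, a BH3-only protein that links death receptors to mitochondria, was the gene that rose, from 25.6 ± 0.624 to 35.2 ± 2.69 FPKM (SD, n = 3 per genotype; log2 fold change 0.44, limma adjusted p = 0.00632), and is named after its values were seen.

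Of the 16 tested targets in cell cycle arrest and DNA repair, 10 fell (62.5%) and 0 rose, against 41.1% and 11.7% of all tested genes. With median-of-ratios scaling 6 fell and 0 rose, against 22.2% and 25.6% of all genes. Fbxw7, a substrate receptor of a ubiquitin ligase for cyclin E, fell by 0.78, and Rrm2b, the p53-induced ribonucleotide reductase subunit, by 0.65 (limma adjusted p = 0.00171 and 0.00177). Btg2, an antiproliferative gene that is also an immediate early gene, measured 7.53, 8.07 and 7.97 FPKM in the PR3_KO libraries, compared with 15.65, 20.67 and 13.45 FPKM in the WT libraries (log2 fold change -0.97, limma adjusted p = 0.00179). The replication clamp gene Pcna and Sfn, which encodes an epithelial cell cycle inhibitor, fell from WT means of 58.6 and 7.30 FPKM to 34.9 and 3.73 FPKM (limma adjusted p = 0.00214 for Pcna and 0.00251 for Sfn).

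The 28 tested targets in metabolism and signalling were divided, with 8 lower and 5 higher (28.6% and 17.9%), against 41.1% and 11.7% of all tested genes. With median-of-ratios scaling 6 were lower and 11 higher, against 22.2% and 25.6% of all genes. Dram1, a lysosomal membrane protein of p53-induced autophagy, had the largest fall among the genes named here as p53 targets, from 54.1 ± 11.9 to 11.8 ± 3.72 FPKM (SD, n = 3 per genotype; log2 fold change -2.12, limma adjusted p = 0.000831). The adenylate kinase gene Ak1, the phosphatase gene Ptp4a3 and the receptor gene Notch1 fell by 0.92, 1.15 and 0.89 (limma adjusted p = 0.000831, 0.00125 and 0.00433). Dcxr, an enzyme of xylulose metabolism, rose from 75.8 ± 11.8 to 135 ± 15.8 FPKM (SD, n = 3 per genotype; log2 fold change 0.83, limma adjusted p = 0.00344). The other genes that rose, named after their values were seen, were Fuca1, Mgmt, Dglucy and Ddr1 (log2 fold changes 0.65, 0.71, 0.80 and 0.45).

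**Figure D4:**
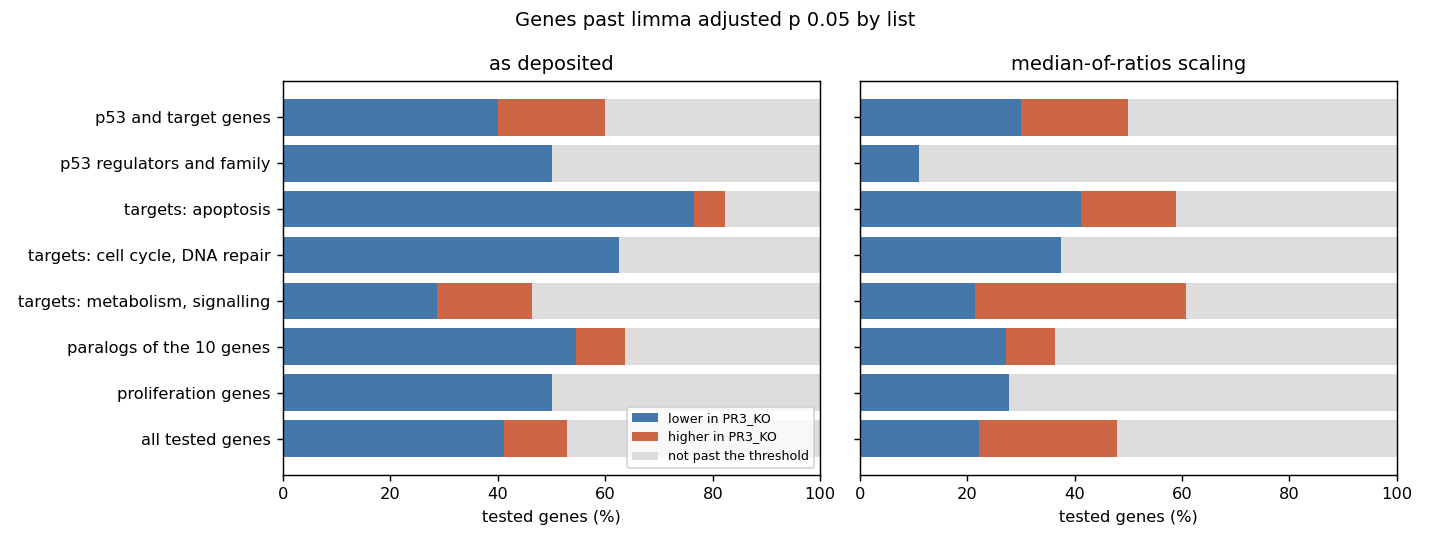
Share of tested genes (horizontal axis, %) in each list that was lower (blue) or higher (red) in PR3_KO at limma adjusted p under 0.05 or not past the threshold (grey), as deposited and with median-of-ratios scaling. As deposited the 10 genes (40.0% lower, 20.0% higher) sit near all tested genes (41.1% and 11.7%), and with the scaling the lower shares shrink in every list shown.

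Close relatives of the 10 genes differed from them in places. Of 11 tested paralogs 6 fell and 1 rose (54.5% and 9.09%), where 41.1% of all tested genes fell and 11.7% rose. With median-of-ratios scaling 3 fell and 1 rose, where 22.2% of all genes fell and 25.6% rose. Gadd45b moved as Gadd45a did, from 13.8 ± 2.49 to 5.70 ± 1.14 FPKM (SD, n = 3 per genotype; log2 fold change -1.15, limma adjusted p = 0.00154). The Phlda3 relative Phlda1 fell by 0.86 (limma adjusted p = 0.00676), and Phlda2, named after its values were seen, rose by 0.67 (limma adjusted p = 0.0211). The other kinase inhibitor genes of the p21 family, Cdkn1b (p27) and Cdkn1c (p57, abundant in podocytes), fell by 0.44 and 0.82 (limma adjusted p = 0.00838 and 0.0162), and neither was past the threshold with median-of-ratios scaling (limma adjusted p = 0.262 for Cdkn1b and 0.0730 for Cdkn1c). Tmem47, a membrane protein gene related to Perp, fell by 1.57 (limma adjusted p = 0.000684).

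The p53-p21 route is known to hold down a set of proliferation genes in dividing cells. Of 30 such genes 18 reached the mean of 1 FPKM needed for the test, and of these 9 fell and 0 rose, or 5 and 0 with median-of-ratios scaling. The 50.0% that fell compares with 41.1% of all tested genes, and the 5 of 18 with 22.2% of all genes under that scaling. The replication helicase subunit genes Mcm3 and Mcm6 fell from 11.4 ± 1.73 to 3.46 ± 0.711 FPKM and from 11.3 ± 0.850 to 5.51 ± 0.787 FPKM (SD, n = 3 per genotype; limma adjusted p = 0.000794 and 0.00107). Mcm5, Mcm4 and the centromeric histone gene Cenpa fell by 0.88, 0.61 and 0.50 (limma adjusted p = 0.00207, 0.0113 and 0.0143). Of 8 tested cyclin, kinase and clamp genes whose products p21 binds 3 fell, with and without the scaling: Ccnd2, Ccnd1 and Pcna. Ccnd2 measured 4.62, 5.70 and 5.16 FPKM in the PR3_KO libraries, compared with 14.57, 21.91 and 13.90 FPKM in the WT libraries.

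Some of the 10 genes belong to other stress programmes as well. Of 18 tested immediate early genes, which react within minutes to stress and tissue dissociation, 15 fell and 0 rose, or 14 and 0 with median-of-ratios scaling. Among all tested genes 41.1% fell and 11.7% rose, or 22.2% and 25.6% with that scaling. Their summed level was 364 to 418 FPKM in PR3_KO and 598 to 850 FPKM in WT, with Fosl1 and Egr3 at 0 in some libraries. Jun fell from 51.4 ± 6.07 to 21.7 ± 1.70 FPKM (SD, n = 3 per genotype; log2 fold change -1.2, limma adjusted p = 0.000735), and Klf4, Ier2 and Klf6 fell by 1.5, 1.2 and 1.04 (limma adjusted p = 0.000861, 0.00118 and 0.00143). Of 14 tested genes on the ATF4 list, which holds Sesn2 and Atf4 itself, 6 rose and 5 fell, or 6 and 3 with the scaling. Atf4, named after its values were seen, fell from 93.6 ± 16.9 to 59.1 ± 4.59 FPKM (SD, n = 3 per genotype). Its log2 fold change was -0.64 (limma adjusted p = 0.00826), and -0.32 with the scaling, not past the threshold (limma adjusted p = 0.141). The serine synthesis genes Psat1 and Phgdh, which the proximal tubule also expresses, rose by 0.99 and 0.82 (limma adjusted p = 0.000935 and 0.00258). Vldlr, also on the list, rose by 0.62 (limma adjusted p = 0.00822). Mthfd2 fell by 0.72 and Atf3 by 1.24 (limma adjusted p = 0.00513 and 0.00584). Atf3 averaged 0.917 FPKM in PR3_KO and 3.69 FPKM in WT, so it reached the level needed for the test through the WT libraries. The part of these programmes in the differences of Gadd45a, Sesn2 and the other genes was not tested.

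Marker transcripts of several cell types moved with genotype. The counts below stand beside 41.1% lower and 11.7% higher among all tested genes, or 22.2% and 25.6% with median-of-ratios scaling. Of 16 proximal tubule markers 13 rose and 0 fell, and their summed level was 54150 to 71732 FPKM in PR3_KO and 10016 to 26556 FPKM in WT. Most of that sum was Kap, an abundant tubular transcript, and without it the ranges were 12552 to 14142 and 4769 to 8046 FPKM. All 13 macrophage markers fell, with summed levels of 256 to 338 FPKM in PR3_KO and 1062 to 3471 FPKM in WT. All 12 endothelial, 7 of 12 podocyte and 6 of 10 mesangial and smooth muscle markers fell and 0 rose, and with median-of-ratios scaling 11, 4 and 4 fell. Of 8 markers of the parietal epithelium, which lines the capsule around the glomerulus, 4 fell and 3 rose. Of 12 markers of the loop, distal tubule and collecting duct 5 fell and 1 rose, or 2 and 1 with median-of-ratios scaling. Of 3 tested lymphocyte markers 0 fell and 0 rose. Of 10 neutrophil markers 0 fell and 1 rose. The summed neutrophil level was 38.8, 31.7 and 398 FPKM in PR3_KO 1, 2 and 3, compared with 173, 256 and 152 FPKM in WT 1, 2 and 3. PR3_KO 3 thus stood apart from the other PR3_KO libraries. The summed podocyte level was 404 to 639 FPKM in PR3_KO and 736 to 1204 FPKM in WT. No podocyte, endothelial, proximal tubule or macrophage marker was at 0 in any library, so transcripts of all these lists were present in both groups. Whether the macrophage transcripts came from cells within the glomeruli or outside them was not tested. In such bulk samples fewer cells of a type and less RNA per cell cannot be told apart. With the mean log2 level of the proximal tubule markers as a covariate, 0 of the 10 genes were past the threshold and 1, Phlda3, had an unadjusted p under 0.05 (limma). In that fit the log2 fold change of Phlda3 was -0.58 (SE 0.25, limma adjusted p = 0.520), that of Gadd45a -0.37 (SE 0.27, limma adjusted p = 0.713), that of Sesn2 0.40 (SE 0.48, limma adjusted p = 0.844), and that of Perp turned to -0.29 (SE 0.25, limma adjusted p = 0.762). The covariate itself did not overlap between the genotypes, so the standard errors grew and the marker level cannot be told apart from genotype.

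**Figure D5:**
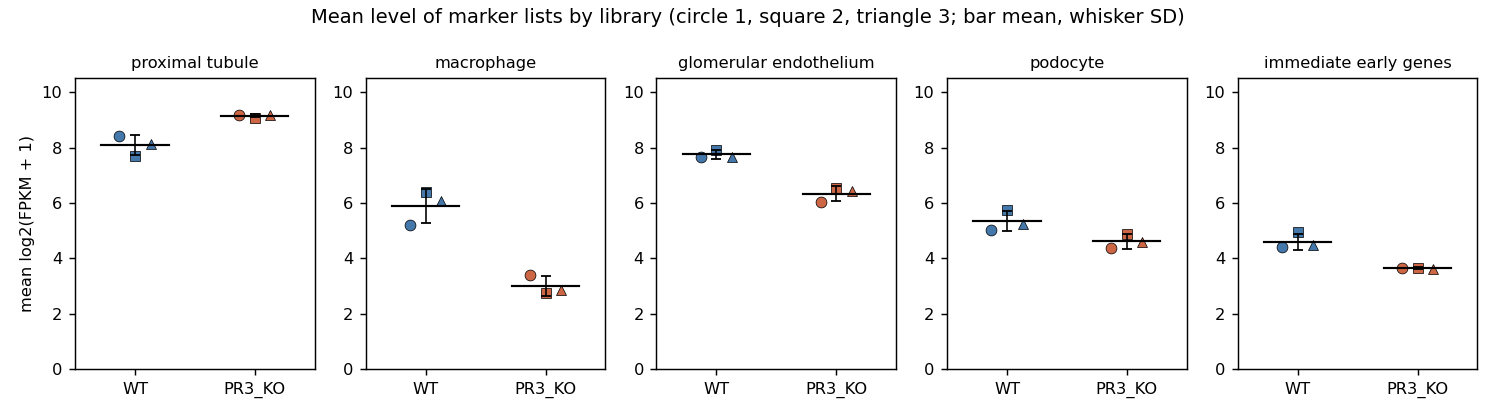
Mean log2(FPKM + 1) of 4 cell marker lists and of the immediate early genes (vertical axis, from 0) in each WT (blue) and PR3_KO (red) library, with the mean as a bar and the SD as a whisker (n = 3 libraries per genotype). Proximal tubule markers are higher in all PR3_KO libraries, and the macrophage, endothelial, podocyte and immediate early lists are lower in all of them.

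The targeted gene Prtn3 measured 0.14, 0 and 0.07 FPKM in the PR3_KO libraries, compared with 0.46, 0.21 and 0.22 FPKM in the WT libraries, too low for more than a weak check of the labels. The files hold no counts or totals. The commonest value above 0 of 53 olfactory receptor genes of 900 to 1000 nucleotides, taken as 1 fragment, corresponds to 15165302 fragments in each of 5 libraries and, for WT 1, to 13269639, a rough estimate that rests on 3 to 7 genes per library, with 2 genes below that value in PR3_KO 2. On that estimate and the length of 1 annotated transcript per gene, the values of the 10 genes stand for 251 to 5702 fragments per library. Whether each library is a different mouse is not stated in the labels. The p-values therefore reflect the spread among these samples alone, and that spread may be technical.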

How the data were processed

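Oligo(dT)-purified RNA of mouse glomeruli was sequenced on DNBSEQ, per the labels' protocols. Bowtie2 and the build GRCm38.p6 are named in the submitters' processing notes. The sources used here do not name the quantification tool, versions, annotation, use of strand or filters. The deposited values are FPKM, per the file headers, rounded by the authors to 2 decimals.

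Each file listed 22064 gene IDs, of which 3242 were empty in all files. Of the 18822 others 18770 matched a RefSeq symbol. Exon numbers and strands came from GENCODE M21 and coordinates from RefSeq. The 12388 genes averaging 1 FPKM or more were fitted as log2(FPKM + 1) with limma 3.58.1 and statmod 1.5.0 (R 4.3.3), with genotype as the only term, an intensity trend and robust moderation. That average was taken over all 6 libraries. Some genes counted as fallen, such as Atf3, Top2a, Eda2r, Ncam1 and Fcgr1, averaged under 1 FPKM in PR3_KO and passed through WT. P-values were Benjamini-Hochberg adjusted over all tested genes, threshold 0.05. A fold change is PR3_KO minus WT on the log2(FPKM + 1) scale, which understates changes of low genes. All libraries were used. The code was tested on simulated data. Files were read with Python 3.11.15 and pandas 2.3.3.

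The 10 genes and all lists were chosen with earlier results of these data known. From each list up to 5 genes with the smallest adjusted p among those past the threshold are named; Mdm4, Sesn3, Trp63, Trp73, Fosl1, Egr3 and the genes marked in the text were named beyond it, after their values were seen. Alternatives were another pseudocount, other filters, scaling by median of ratios or equal sums, no trend, the replicate number as a block and leaving out each library. The proximal tubule covariate and leaving out WT 2 with PR3_KO 3 were chosen after seeing the data.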

Additional observations from a re-analysis of the deposited data

How the results depend on the processing

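Over the 13 alternatives planned for each of the 10 genes, Gadd45a, Phlda3, Sesn1 and Sesn2 kept their direction and their call in all 13 (log2 fold changes -1.33 to -0.84, -1.12 to -0.65, -0.86 to -0.41 and 0.62 to 1.10). Perp lost its call without PR3_KO 1 or PR3_KO 3, and Trp53inp1 with median-of-ratios scaling. With that scaling Cdkn1a, Mdm2 and Trp53 reversed, to 0.13, 0.10 and 0.0507, 21 of the other targets and regulators fell and 13 rose, and 2742 of all genes fell and 3158 rose. With library sums made equal Ccng1 reversed to -0.0505, Mdm2 and Trp53 passed the threshold (-0.37 and -0.43), and 894 of all genes rose. Those sums include Kap, at 40546 to 57590 FPKM in PR3_KO and 5248 to 18509 FPKM in WT, so this scaling depends on a transcript that differed with genotype. Over the fits without 1 library Ccng1 ranged from -0.0151, reversed without WT 2, to 0.194 without WT 1. With the proximal tubule covariate Ccng1, Cdkn1a, Perp and Trp53 reversed (-0.47, 0.15, -0.29 and 0.30), and 0 genes passed in either direction among the 10, the 78 others and all 12388 (limma), where 1, 4 and 1172 had an unadjusted p under 0.05.

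Leaving out each library in turn gave 1 to 2 of the 10 genes higher and 916 to 1518 of all genes higher. The lower ends were reached without PR3_KO 1 (1 and 916), and without PR3_KO 3 the numbers were 1 and 936. Leaving out WT 2 and PR3_KO 3 together changed no call among the 10 genes. Deviations of same-numbered libraries from their group means had correlations over genes of 0.07, 0.27 and -0.09. These lay within the range of unlike-numbered libraries, -0.26 to 0.32, so the numbers were not taken as pairs. With the replicate block 4 of the 10 genes fell and 2 rose, as without it, and 5143 of all genes fell and 1550 rose. With 3 libraries per genotype and no counts, the precision of each value could not be set by its depth.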
